A study of Homo sapiens with 17 samples.

Results

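The comparison of serum-starved (quiescent) with early RAS-induced (pre-senescent) human BJ fibroblasts set 2 treatments of the same cell line directly against each other, with no proliferating control in the ratio. It drew on 7 of the 17 libraries of the series, namely 2 RNA-Seq and 2 Ribo-Seq libraries of quiescent cells and 2 RNA-Seq libraries and 1 Ribo-Seq library of pre-senescent cells. Its members were all 9699 transcripts of the table, of 9699 in the whole series, because every transcript had a value in each of the 4 columns used. BJ cells are primary foreskin fibroblasts, here immortalized with hTERT, the catalytic subunit of telomerase. The quiescent cells were deprived of serum, for a time not given in the labels, whereas normal medium held 10% fetal calf serum. The pre-senescent cells carried a tamoxifen-inducible RASG12V and were kept with 4-OHT-tamoxifen for 5 days. RNA-Seq measured the poly(A) RNA of a transcript, and Ribo-Seq the fragments protected by ribosomes on its coding sequence.

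The deposited table gave a single FPKM value (reads scaled to transcript length and library size) for each condition and assay, so that the spread between the replicate libraries could not be recovered and no difference carries an error or a test. All differences below are log2 ratios of quiescence over pre-senescence, and a transcript was counted as higher in a condition when the ratio reached 2-fold. Translation efficiency (TE) was the Ribo-Seq log2 ratio minus the RNA-Seq log2 ratio. The authors had set values below 1 FPKM to 1, and a fold against such a value is a lower bound. The labels do not say whether the quiescent cells carried the RAS construct. The absence of serum, the RAS allele and the drug therefore cannot be told apart in this comparison. In these bulk samples, fewer cells of a type and less RNA per cell cannot be told apart either.

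Serum withdrawal removes growth factors and lipoproteins together. Cells short of sterol release the SREBP transcription factors, which drive the enzymes of cholesterol and fatty acid synthesis, and lowered mTOR activity restrains translation of mRNAs that begin with a 5′ terminal oligopyrimidine (TOP) tract, chiefly those of ribosomal proteins. Oncogenic RAS signals through the RAF, MEK and ERK kinases to ETS and AP-1 factors, and fibroblasts entering RAS-induced senescence are known to secrete proteases, chemokines and growth factors.

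The RAS genes were read first. HRAS RNA stood at 1254 FPKM in quiescence and 2102 FPKM in pre-senescence, against 2415 FPKM in the proliferating cells of the same sequencing run. ESR1, whose hormone-binding part is used in tamoxifen-inducible fusions, had Ribo-Seq levels of 177 FPKM in quiescence, 214 FPKM in pre-senescence and 332 FPKM in proliferating cells. HRAS was thus highly abundant in all 3 states, and its level did not separate the induced cells from the others. In the transformed cells of the series, from another sequencing run, HRAS RNA was at 312 FPKM and ESR1 Ribo-Seq at 8.84 FPKM. Whether the quiescent cells carried the construct was not tested. NRAS differed by -0.40 in RNA log2 ratio.

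The fibroblast identity of both states was checked against markers. All 12 fibroblast markers were in the table, with VIM RNA at 4881 FPKM in quiescence and 4703 FPKM in pre-senescence. The summed RNA level of the 12 was 7424 FPKM in quiescence and 6001 FPKM in pre-senescence, most of it VIM. DCN, LUM, COL3A1, PDGFRB, COL1A1 and COL1A2 had RNA 2.29-fold to 22.4-fold higher in quiescence. The other markers of the 12 were under 2-fold. None of 7 endothelial markers was in the table, which holds only transcripts above a read minimum. Of 7 leukocyte markers only CD68 and CD14 were listed, summing to 114 FPKM in quiescence and 133 FPKM in pre-senescence, nearly all from CD68, which is also a lysosomal protein. Of 8 epithelial markers KRT8, KRT18 and KRT19 were listed, summing to 105 FPKM in quiescence and 134 FPKM in pre-senescence, most of it KRT18. The defining markers PTPRC, EPCAM, CDH1 and PECAM1 were not in the table.

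At the RNA level 497 transcripts were higher in quiescence, which is 5.12% of the 9699, and 211 transcripts were higher in pre-senescence, which is 2.18%. In Ribo-Seq 1037 transcripts (10.7%) were higher in quiescence and 520 transcripts (5.36%) higher in pre-senescence. By TE 511 transcripts (5.27%) were higher in quiescence and 300 transcripts (3.09%) higher in pre-senescence. Among transcripts past 2-fold, more thus lay on the quiescent side in all 3 measures. The median log2 ratio over all transcripts was -0.04 in RNA-Seq, 0.00 in Ribo-Seq and 0.06 in TE, and 7725 transcripts stayed under 2-fold in all 3 measures. As a yardstick for what separates libraries of 1 nominal state, 761 transcripts (7.85%) differed by 2-fold or more in RNA between the proliferating cells of the second and the first sequencing run. Both conditions compared here came from the first run.

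The most quiescence-biased RNAs joined lipid carriers and matrix genes. FABP3, a fatty acid-binding protein, was at 33.9 FPKM in quiescence and at the floor in pre-senescence, which makes it at least 33.9-fold higher in quiescence. The small leucine-rich proteoglycans decorin (DCN) and lumican (LUM) were 22.4-fold and 18.8-fold higher in quiescence. The elastic-fibre protein MFAP4 was 21.4-fold higher and the osteoblast-associated membrane protein TMEM119 11.8-fold higher. Among the other leading RNAs were TM7SF2 of sterol synthesis, SCD of fatty acid desaturation, the antiviral OAS1, the chemokine-scavenging receptor CCRL1 and the activin subunit INHBE.

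The most pre-senescence-biased RNAs were led by genes of secreted and surface proteins. SERPINB2, an inhibitor of plasminogen activators, was 19.8-fold higher in pre-senescence and the matrix protease stromelysin MMP3 18.3-fold higher. G0S2, an inhibitor of triglyceride lipase, was 11.8-fold higher, the interleukin receptor IL7R 11.0-fold and osteopontin (SPP1) 9.98-fold. IL13RA2, ID1, ID3, the sialomucin PODXL and the actin bundler LCP1 completed the leading RNAs, at 7.77-fold to 9.29-fold. The decoy receptor IL13RA2 rested on low levels in quiescence, 2.34 FPKM in RNA-Seq and 1.65 FPKM in Ribo-Seq.

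Sterol synthesis had the highest share of members past 2-fold among the gene lists. Of 20 enzymes that lead from acetyl-CoA units to cholesterol, 18 had RNA at least 2-fold higher in quiescence and none was higher in pre-senescence, against 5.12% and 2.18% of all transcripts. Their median RNA log2 ratio was 1.85. HMGCS1, which makes HMG-CoA, was at 93.2 FPKM in quiescence, 13.9 FPKM in pre-senescence and 6.82 FPKM in proliferating cells. DHCR7, the last reductase before cholesterol, was at 214, 33.5 and 22.7 FPKM in the same order. MVD, which makes isopentenyl diphosphate, was at 125, 24.8 and 16.4 FPKM. The levels thus kept one order, with pre-senescent cells nearer to the proliferating cells than to the starved ones, and for 19 of the 20 enzymes the proliferating level was below both conditions. TM7SF2, a sterol reductase, was at 20.1 FPKM in quiescence and at the floor in the other states.

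The exceptions were the decarboxylating dehydrogenase NSDHL, with a log2 ratio of 0.56, and the phosphomevalonate kinase PMVK, with -0.06. In Ribo-Seq 18 of the 20 enzymes were again higher in quiescence, against 10.7% of all transcripts. Their median log2 ratio over the 20 was 1.78, and all 20 ratios were above 0. The median TE log2 ratio of the enzymes was -0.23, and TM7SF2 alone passed 2-fold in TE, at -1.31, on a bounded RNA ratio. Ribosome occupancy of these enzymes therefore differed about as much as their RNA, with the spread shown in the plot of sterol enzyme levels.

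**Figure D1:**
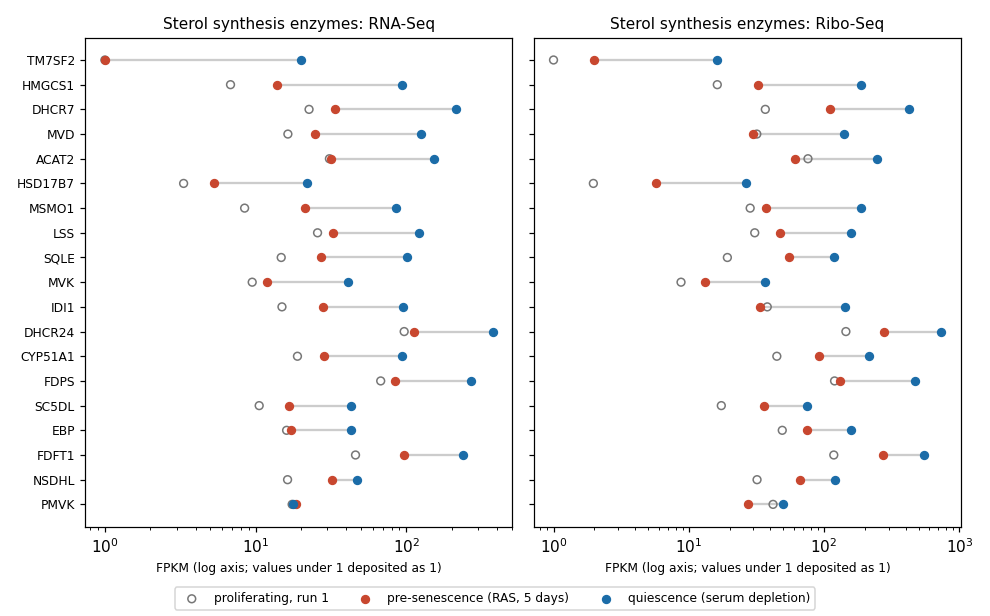
FPKM of 19 sterol synthesis enzymes (log axes) in RNA-Seq on the left and Ribo-Seq on the right, 1 deposited value per condition, with blue for quiescence, red for pre-senescence and open circles for proliferating cells of the same run. The blue points lie at or beyond the right end of nearly every line, PMVK RNA being the exception, and HMGCS1 RNA reads 93.2 against 13.9 FPKM.

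The regulators and the uptake side of the pathway showed the same direction in part. Of 12 such genes 6 had RNA higher in quiescence and none higher in pre-senescence, against 5.12% and 2.18% of all transcripts. The median log2 ratio was 1.06. SREBF2, which encodes the SREBP of cholesterol genes, was at 74.8 FPKM in quiescence, 25.6 FPKM in pre-senescence and 19.5 FPKM in proliferating cells. SREBF1, which encodes the SREBP that favours fatty acid genes, was at 36.9, 9.93 and 14.5 FPKM. INSIG1, the sterol-sensitive retainer of SREBP in the endoplasmic reticulum, had a log2 ratio of 2.86 and STARD4, a cytosolic sterol carrier, 1.57. The escort SCAP differed by 0.04, and the efflux pump ABCA1 had -0.57.

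SREBF2 was the only member of the sterol, fatty acid, ERK, cytokine, protease and serum-withdrawal lists whose promoter window held the sterol response element as searched, TCACNCCAC on either strand. The window ran from 250 bases before to 50 bases after the RefSeq start (GRCh38.p14), and 1.15% of all 27305 windows held the motif. The site lay 133 bases before the start at chr22:41832962-41832990, on the plus strand, and is shown with the motif in capitals because SREBF2 was among the genes higher in quiescence.
SREBF2: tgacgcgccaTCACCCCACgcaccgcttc
Only 14 of the 20 sterol enzymes had a promoter in the reference table, so that a share over that list is void.

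Fatty acid synthesis went the same way as sterol synthesis for 7 of 16 genes in RNA, and none was higher in pre-senescence, against 5.12% and 2.18% of all transcripts. SCD, the stearoyl-CoA desaturase, was at 595 FPKM in quiescence, 54.5 FPKM in pre-senescence and 49.4 FPKM in proliferating cells, a 10.9-fold difference between the 2 conditions. FADS2, a desaturase of polyunsaturated fatty acids, had an RNA log2 ratio of 3.02, the acetyl-CoA synthetase ACSS2 2.67 and the fatty acid synthase FASN 1.89. Their Ribo-Seq log2 ratios were 2.60, 2.54 and 1.94. In proliferating cells FADS2, ACSS2 and FASN RNA was at 47.3, 10.4 and 69.2 FPKM, next to 43.0, 10.5 and 78.8 FPKM in pre-senescence. The list median was 0.84 in RNA-Seq and 0.57 in Ribo-Seq.

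Genes tied to ERK feedback mostly differed by less than 2-fold in RNA. The list held 18 genes, namely dual-specificity phosphatases, Sprouty and Spred inhibitors, ETS factors, PHLDA1, EPHA2 and EPHA4. Only DUSP1 was past 2-fold in RNA, higher in pre-senescence at 84.4 against 26.4 FPKM. Of all transcripts 2.18% were past 2-fold toward pre-senescence and 5.12% toward quiescence. The median RNA log2 ratio of the list was -0.14, beside -0.04 over all transcripts. DUSP6, the phosphatase specific for ERK, was at 40.7 FPKM in quiescence, 57.2 FPKM in pre-senescence and 20.8 FPKM in proliferating cells. SPRY2, an inhibitor of receptor-to-RAS signalling, was at 45.1, 81.7 and 31.6 FPKM, and DUSP5, a nuclear ERK phosphatase, at 40.2, 73.4 and 36.7 FPKM. SPRY4 was at 53.8, 68.1 and 40.2 FPKM. These members were higher in pre-senescence by less than 2-fold. For 12 of the 18 the proliferating RNA level was below both conditions.

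The PEA3-type ETS factors leaned the other way. ETV5 was at 27.9 FPKM in quiescence and 20.2 FPKM in pre-senescence, ETV4 at 16.5 and 12.8 FPKM, and ETV1 at 17.4 and 11.97 FPKM. In Ribo-Seq ETV1, ETV5 and the Spred protein SPRED2 passed 2-fold toward quiescence, with log2 ratios of 1.16, 1.30 and 1.99, while DUSP1 had -1.40. ETS1 and ETS2 differed by -0.59 and 0.06 in RNA, and PHLDA1, a growth factor-induced gene, by -0.81. The remaining members DUSP4, DUSP7, SPRED1, SPRED3, EPHA2 and EPHA4 had RNA log2 ratios of -0.24, 0.25, -0.05, 0.09, -0.45 and 0.57.

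Immediate early genes were divided. EGR1, an early zinc finger factor, was at 17.7 FPKM in quiescence and 53.8 FPKM in pre-senescence, and FOS was at the floor in quiescence and 2.98 FPKM in pre-senescence. JUND, the AP-1 member associated with resting cells, was at 70.9 FPKM in quiescence and 20.0 FPKM in pre-senescence. These 3 were the only members of 12 past 2-fold in RNA, against 5.12% of all transcripts toward quiescence and 2.18% toward pre-senescence. FOSL1, an AP-1 member known as a RAS target, had an RNA log2 ratio of -0.85 and a Ribo-Seq log2 ratio of -0.15. The TE log2 ratio of the list had a median of 0.53, beside 0.06 over all transcripts.

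The secreted proteases and their inhibitors held the widest range of all lists in RNA, from -4.30 to 2.24. Of 21 genes 6 were higher in pre-senescence, against 2.18% of all transcripts, and 2 were higher in quiescence, against 5.12%. MMP3 RNA was at 120.0 FPKM in quiescence, 2190 FPKM in pre-senescence and 399 FPKM in proliferating cells. SERPINB2 was at 10.8, 213 and 15.2 FPKM. MMP1, the interstitial collagenase, was at 2808, 7186 and 1289 FPKM. Starved cells were thus below proliferating cells for MMP3 and SERPINB2 but above them for MMP1. SERPINB7 had a log2 ratio of -2.08, and the urokinase gene PLAU and the aggrecanase-type ADAMTS1 also passed 2-fold toward pre-senescence, at -1.04 and -1.01.

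The 2 genes on the quiescent side were MMP11, at 4.74 FPKM against the floor, and the tissue plasminogen activator PLAT, at 257 against 111 FPKM. The gelatinase MMP2 and the membrane-anchored MMP14 differed by -0.11 and 0.10. MMP10 stood apart between assays: its RNA was at the floor in quiescence and 1.67 FPKM in pre-senescence, while its Ribo-Seq level was 6.17 FPKM in quiescence, 108 FPKM in pre-senescence and 18.2 FPKM in proliferating cells. Its TE log2 ratio of -3.39 therefore rests on RNA values next to the floor, and it was the lowest of all transcripts.

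Chemokines and cytokines were few and mostly low. Of 7 chemokines in the table IL8 (CXCL8) was at 4.14 FPKM in quiescence and 28.0 FPKM in pre-senescence, a 6.76-fold difference, and its Ribo-Seq level was 12.4 against 89.3 FPKM. CXCL1 and CXCL3 were at the floor in quiescence and at 6.88 and 2.56 FPKM in pre-senescence, at least 6.88-fold and 2.56-fold higher. CCL2, a monocyte attractant, went the other way with 27.0 against 7.51 FPKM, and proliferating cells had more of it than either, at 55.5 FPKM. CXCL12 did not separate the states, at 11.7 and 11.9 FPKM, and CXCL5 and CXCL6 were listed at the floor in both.

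Of 9 interleukin and colony-stimulating genes 3 had RNA higher in pre-senescence and 2 higher in quiescence, against 2.18% and 5.12% of all transcripts. IL11 was at 12.4 FPKM in quiescence and 30.9 FPKM in pre-senescence, and CSF3 at 1.24 and 3.12 FPKM. IL1B was at 5.65 and 10.6 FPKM, under 2-fold, and at 1.22 FPKM in proliferating cells. CSF1, the macrophage growth factor, was at 21.6 FPKM in quiescence and 6.69 FPKM in pre-senescence, and IL1R1 at 21.2 and 10.4 FPKM. IL6, a hallmark cytokine of full senescence, was at the floor in the RNA of both states and at 1.32 FPKM in the pre-senescent Ribo-Seq. CSF2 and IL32 were at or near the floor in RNA, with 1.21 FPKM the highest value.

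Among growth factors the EGF-family ligand epiregulin (EREG) was at 6.84 FPKM in quiescence and 23.3 FPKM in pre-senescence in RNA, and at 25.6 and 135 FPKM in Ribo-Seq. The activin subunit INHBA was at the floor in quiescence and 3.46 FPKM in pre-senescence, and BDNF had a log2 ratio of -1.05. HGF, a motility factor made by fibroblasts, was the only one of 14 past 2-fold toward quiescence in RNA, at 10.3 against 3.70 FPKM, and in Ribo-Seq FGF1 also passed, at 11.1 against 4.29 FPKM. The plot of protease, cytokine and growth factor levels sets these genes side by side in both assays.

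**Figure D2:**
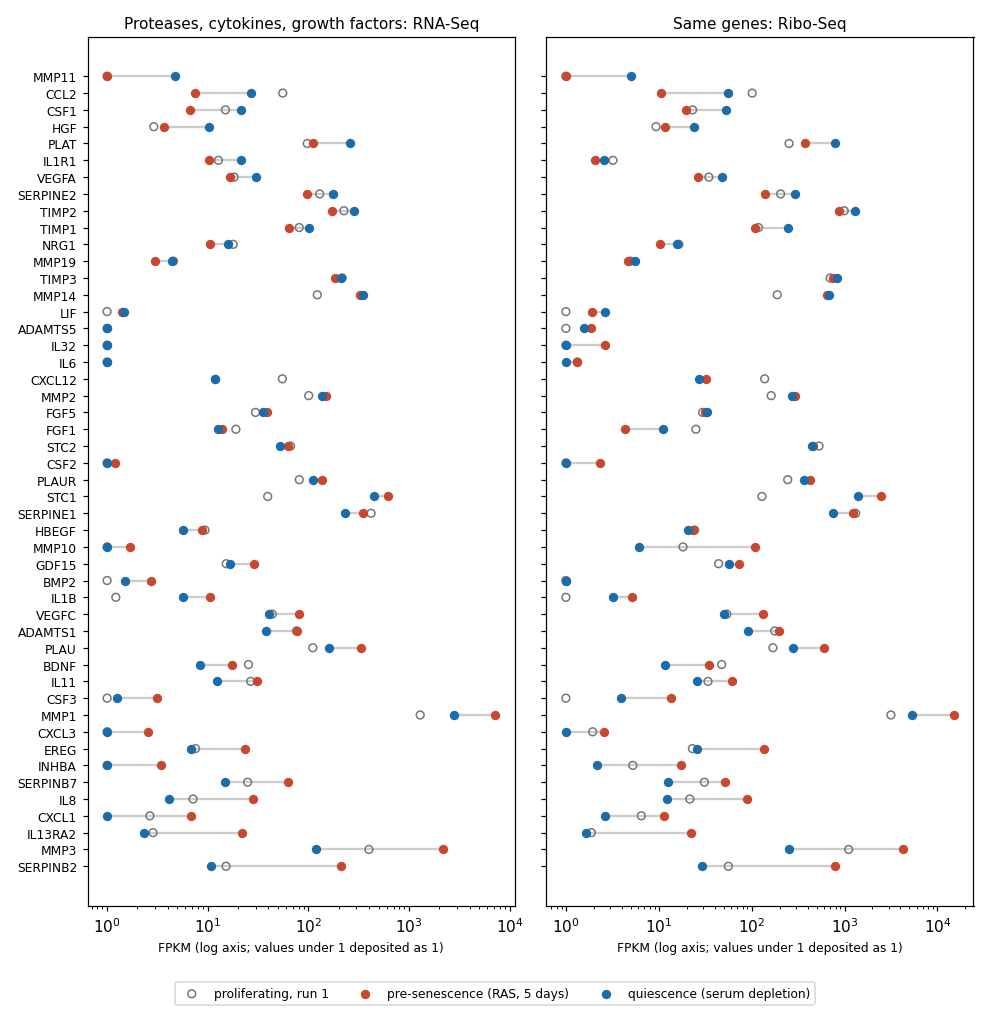
FPKM (log axes) of proteases and their inhibitors, chemokines, interleukins with colony-stimulating factors, and growth factors, ordered by RNA log2 ratio, in RNA-Seq on the left and Ribo-Seq on the right, 1 deposited value per condition. MMP11 at the top lies toward quiescence and SERPINB2 at the bottom toward pre-senescence, where it reads 213 FPKM in RNA against 10.8 FPKM.

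Promoter windows of 4 of these secreted and surface genes held the AP-1 motif TGANTCA, which 7.76% of all 27305 windows and 4.35% of the 7292 windows of transcripts in the table held on either strand. Growth factor genes were not searched. The sites are shown with 10 bases on each side, on the strand of the gene, since AP-1 lies downstream of RAS. They lay 102 bases (SERPINB2, chr18:63887593-63887619), 67 bases (MMP10, chr11:102780679-102780705), 96 bases (IL11, chr19:55370543-55370569) and 186 bases (PLAUR, chr19:43670339-43670365) before the start in GRCh38.p14. SERPINB2 lies on the plus strand and the others on the minus strand, and capitals mark the motif.
SERPINB2: agtaaaatgtTGAATCActcaaaggac
MMP10: aacacatgcaTGAATCAtactgttggt
IL11: gcagggagggTGAGTCAggatgtgtca
PLAUR: cacaactccaTGAGTCAgggccgagcc
SERPINB2 and IL11 were past 2-fold toward pre-senescence in RNA. MMP10 was so in Ribo-Seq only, with RNA at the floor in quiescence and 1.67 FPKM in pre-senescence. PLAUR, the urokinase receptor, was at 112 and 136 FPKM in RNA. Windows of the other lists searched held the motif in KLHL24, ELOVL5 and SPRED3, whose RNA log2 ratios were 1.68, 0.68 and 0.09. Promoters were found for 11 of the 21 protease genes, so that a share over that list is void.

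The structural matrix lay on the quiescent side. Of 31 collagens and matrix genes 11 had RNA higher in quiescence and none higher in pre-senescence, against 5.12% and 2.18% of all transcripts, with a median log2 ratio of 0.86, and 29 ratios were above 0. COL3A1, a fibrillar collagen, was at 96.3 FPKM in quiescence, 12.7 FPKM in pre-senescence and 55.9 FPKM in proliferating cells. DCN was at 82.6, 3.68 and 27.6 FPKM and LUM at 101, 5.38 and 33.6 FPKM. The proliferating level of these 3 lay between the conditions, as it did for 19 of the 31 genes. COL15A1 was at 3.77 FPKM against the floor. The Ribo-Seq median was 0.86 as well, with the same counts of 11 and 0, against 10.7% and 5.36% of all transcripts.

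The IGF axis had 5 of 7 genes higher in quiescence at the RNA level and 6 of 7 in Ribo-Seq, against 5.12% and 10.7% of all transcripts. The binding protein IGFBP5, an abundant fibroblast product, was at 326 FPKM in quiescence, 82.3 FPKM in pre-senescence and 393 FPKM in proliferating cells. IGFBP3 was at 10.9, 2.77 and 17.3 FPKM, and IGFBP6 at 170.5, 45.0 and 72.2 FPKM. The difference thus lay in low pre-senescent levels for IGFBP5 and IGFBP3. IGFBP2 had a log2 ratio of 1.57.

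Inhibitors of differentiation showed the reverse. ID1, a dominant-negative partner of basic helix-loop-helix factors and a BMP target, was at 15.5 FPKM in quiescence, 131 FPKM in pre-senescence and 164 FPKM in proliferating cells. ID3 was at 11.0, 90.7 and 145 FPKM. In Ribo-Seq ID1 was at 32.7, 222 and 381 FPKM and ID3 at 32.1, 169 and 372 FPKM in the same order. Starved cells were thus the lowest in both assays, and pre-senescent cells lay below the proliferating level. No other member of 14 TGF-beta and BMP genes passed 2-fold in RNA, and LTBP1 and LTBP2, which hold latent TGF-beta in the matrix, had log2 ratios of 0.79 and 0.77. Of 12 YAP/TEAD targets only ANKRD1 passed 2-fold in RNA, at the floor in quiescence and 6.20 FPKM in pre-senescence, and in Ribo-Seq AMOTL2 and F3 also passed, with log2 ratios of 1.11 and -1.05. Of 17 contractile genes LMOD1, at 6.85 FPKM against the floor, and the smooth muscle actin ACTA2, at 31.0 against 13.4 FPKM, were higher in quiescence in RNA.

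Genes of the FOXO and serum-withdrawal programme were higher in quiescence for 8 of 24 members in RNA and 13 of 24 in Ribo-Seq, with none toward pre-senescence in either, against 5.12% and 10.7% of all transcripts toward quiescence. PIK3IP1, an inhibitor of PI3 kinase, was at 8.95 FPKM against the floor in RNA and 39.7 against 4.02 FPKM in Ribo-Seq. GAS1, a growth-arrest-specific membrane protein, was at 9.63 and 1.68 FPKM, and GAS6, the ligand of AXL-type receptors, at 244 and 58.0 FPKM. GAS6 aside, the genes past 2-fold in RNA were under 10 FPKM in both conditions. KLF9 and KLHL24 were at 2.28 and 3.21 FPKM against the floor. YPEL3 had a log2 ratio of 1.82 in RNA and 3.74 in Ribo-Seq, the latter against the floor. The FOXO factors themselves did not separate the states, with FOXO3 at 12.3 and 13.1 FPKM and FOXO1 at the floor in the RNA of both. Of 23 members with a promoter 2 held the forkhead motif GTAAACA, which is 8.70%. On either strand 3.41% of all windows and 2.13% of the 7292 windows of transcripts in the table held it. Of the other lists searched, only ELOVL6 of fatty acid synthesis held it, with an RNA log2 ratio of 0.46. In GRCh38.p14 the sites of the FOXO list lay in TXNIP at chr1:145996687-145996713, 124 bases before the start, and in YPEL3 at chr16:30096197-30096223, at the start itself. Both genes are on the minus strand, and capitals mark the motif.
TXNIP: cgggctcctgGTAAACAaggaccgggc
YPEL3: tgggctcggtGTAAACAagtccaggcg

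Interferon-induced genes were higher in quiescence for 14 of 24 members in RNA and 18 of 24 in Ribo-Seq, against 5.12% and 10.7% of all transcripts, and the median RNA log2 ratio was 1.26. IFI6, a mitochondrial antiviral protein, was at 159 FPKM in quiescence, 17.0 FPKM in pre-senescence and 48.5 FPKM in proliferating cells. OAS1, an RNA-sensing synthetase, was at 11.6 FPKM in quiescence, at the floor in pre-senescence and at 2.79 FPKM in proliferating cells. IFITM1, which blocks virus entry, was at 159, 28.4 and 52.3 FPKM. For 17 of the 24 the proliferating level lay between the conditions, with starved cells above it and pre-senescent cells below it in these examples. Of the 24 genes 6 were at the floor in pre-senescent RNA, so that their ratios and the median hold lower bounds. OASL was the only member higher in pre-senescence, at 5.54 FPKM against the floor. Of 17 complement and MHC class I genes 5 had RNA higher in quiescence, against 5.12% of all transcripts. C1S, a complement protease, was at 21.4 against 4.33 FPKM and its inhibitor SERPING1 at 4.38 FPKM against the floor.

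The integrated stress response list was higher in quiescence for 9 of 27 members in RNA and 13 of 27 in Ribo-Seq, against 5.12% and 10.7% of all transcripts. NUPR1, a stress-induced chromatin protein, was at 73.2 against 16.6 FPKM, and DDIT4, an inhibitor of mTOR complex 1, at 69.1 against 17.7 FPKM. PYCR1 of proline synthesis and the lipoprotein receptor VLDLR had log2 ratios of 1.55 and 1.47. The stress factor ATF4 itself had RNA at 306 FPKM in quiescence and 197 FPKM in pre-senescence, whereas its Ribo-Seq level was 44.0 and 54.4 FPKM, which gave a TE log2 ratio of -0.94. CHOP (DDIT3) had a TE log2 ratio of -1.16 with Ribo-Seq at 7.06 and 18.2 FPKM. CEBPG, the dimer partner of ATF4, had the highest TE log2 ratio of all transcripts at 3.69, with RNA at 14.1 and 9.40 FPKM and Ribo-Seq at 28.6 and 1.48 FPKM. In the list of TE ratios ATF4 and DDIT3 thus lay toward pre-senescence, and CEBPG and the serine phosphatase PSPH, at 1.90, toward quiescence.

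Targets of p53 were mixed. Of 22 genes 3 had RNA higher in quiescence and 1 in pre-senescence, against 5.12% and 2.18% of all transcripts. The median RNA log2 ratio was 0.31. CDKN1A, the p21 inhibitor of cyclin-dependent kinases, was at 129 FPKM in quiescence, 107 FPKM in pre-senescence and 80.8 FPKM in proliferating cells. SESN2, a stress sensor upstream of mTOR complex 1, was at 27.4, 14.5 and 14.6 FPKM. The genes past 2-fold were FUCA1, TP53INP1 and DRAM1 toward quiescence, at log2 ratios of 1.55, 1.52 and 1.48, and the decoy death receptor TNFRSF10D toward pre-senescence, at -1.62. TP53INP1 was also 1 of 2 transcripts whose RNA and Ribo-Seq passed 2-fold in opposite directions, with log2 ratios of 1.52 and -1.45. The other was SLC35E2B.

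Among CDK inhibitors CDKN2A, the locus of p16 and ARF, was at 30.6 FPKM in quiescence, 14.2 FPKM in pre-senescence and 17.2 FPKM in proliferating cells, and its Ribo-Seq level was 33.1 against 7.05 FPKM. CDKN2B was not in the table. CDKN1B, the p27 inhibitor tied to serum withdrawal, was at 10.6 and 7.52 FPKM in RNA and 44.5 and 20.3 FPKM in Ribo-Seq. CDKN2C and CDKN2D had RNA log2 ratios of 0.66 and 0.80, and the pocket protein RBL2 0.69. CDKN2A alone of the 9 passed 2-fold in RNA, while CDKN2A, CDKN2D and CDKN1B did so in Ribo-Seq. All these calls were toward quiescence, where 5.12% of all transcripts were called in RNA and 10.7% in Ribo-Seq. The Ribo-Seq level of CDKN2D was 24.3 against 4.68 FPKM, and pre-senescent footprints rest on 1 library.

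Cell cycle genes were lower in quiescence than in pre-senescence, mostly by less than 2-fold. Of 37 mitosis genes 36 had an RNA log2 ratio below 0, with a median of -0.54, but only CDC20 and AURKB passed 2-fold, a count of 2 against 2.18% of all transcripts. CDC20, an activator of the anaphase-promoting complex, was at 63.2 FPKM in quiescence, 153 FPKM in pre-senescence and 215 FPKM in proliferating cells. MKI67, the marker of cycling cells, was at 32.8, 37.0 and 73.9 FPKM. For all 37 genes the proliferating RNA level was above both conditions. Of 42 replication genes 4 passed 2-fold toward pre-senescence, with a median of -0.61, led by ORC6 at 10.8 against 25.1 FPKM and MCM10 at 4.36 against 9.86 FPKM. LMNB1, a lamin known to decline in senescence, had an RNA log2 ratio of 0.01, at 25.9 FPKM in pre-senescence and 58.3 FPKM in proliferating cells. The 2 states thus did not separate on LMNB1 or MKI67.

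**Figure D3:**
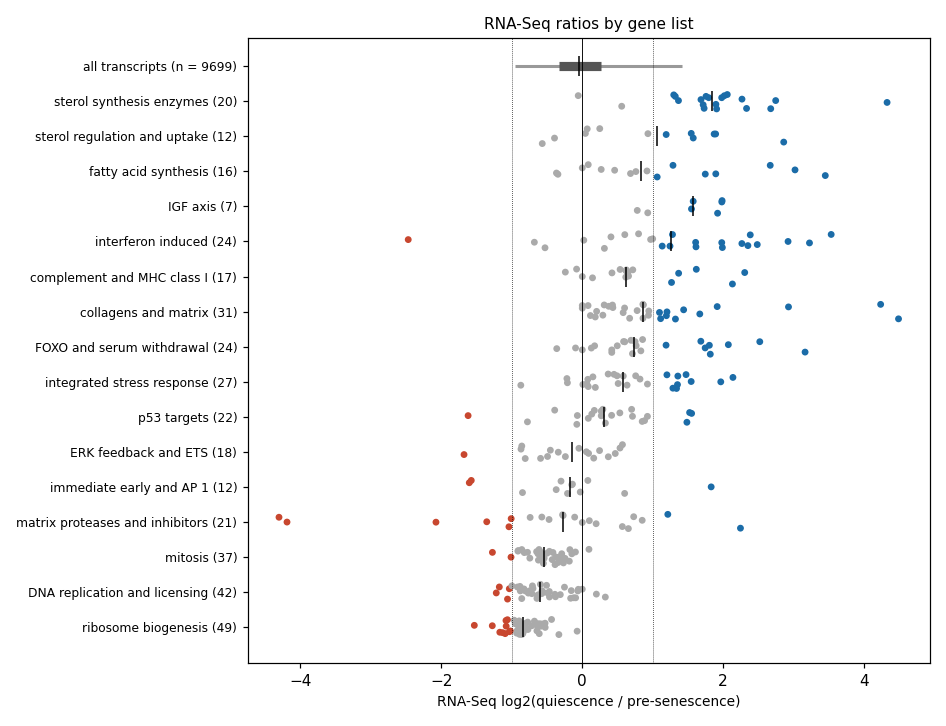
RNA-Seq log2 ratios of quiescence over pre-senescence for the members of 16 gene lists, 1 point per gene, with a black tick at each median, blue and red for 2-fold or more toward quiescence and pre-senescence, and dotted lines at 2-fold. The top bar gives the middle 50% (thick) and 95% (thin) of all 9699 transcripts. Medians run from 1.85 for sterol synthesis enzymes to -0.84 for ribosome biogenesis.

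Genes of ribosome production lay toward pre-senescence, those of biogenesis in RNA and the ribosomal proteins in Ribo-Seq. Ribosome biogenesis genes, which make and process ribosomal RNA, had RNA log2 ratios below 0 for all 49 members, with a median of -0.84, and 10 were past 2-fold toward pre-senescence against 2.18% of all transcripts. LYAR, a nucleolar protein, was at 12.7 FPKM in quiescence, 36.7 FPKM in pre-senescence and 22.7 FPKM in proliferating cells. The ribosome assembly factor PNO1 was at 11.4, 27.6 and 20.2 FPKM. For 41 of the 49 the proliferating RNA level lay between the conditions, with starved cells lowest and pre-senescent cells highest in these examples. Their TE log2 ratio had a median of 0.18 and none passed 2-fold, so that the Ribo-Seq median was -0.63.

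Cytosolic ribosomal proteins showed the difference in TE and hardly in RNA. None of 79 genes was past 2-fold in RNA, where the median log2 ratio was -0.10. In Ribo-Seq 7 were past 2-fold toward pre-senescence, against 5.36% of all transcripts, and the median was -0.63. The median TE log2 ratio was -0.52, beside 0.06 over all transcripts, and 76 of 79 genes were below 0, while only RPLP1 and RPS23 passed 2-fold (3.09% of all transcripts did). RPLP1, a protein of the ribosomal stalk, had RNA at 1058 and 1088 FPKM and Ribo-Seq at 611 and 1420 FPKM. RPS23, at the decoding site, had RNA at 233 and 230 FPKM and Ribo-Seq at 393 and 819 FPKM. The RNA of these genes was thus nearly equal and their ribosome footprints differed about 2-fold. Proteins of the large subunit (49 RPL genes) had a median TE log2 ratio of -0.46 and those of the small subunit (30 RPS genes) -0.61. In Ribo-Seq the proliferating level was above both conditions for 75 of the 79 genes.

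The paralogs with the opposite direction were RPL26L1 at 0.94, RPL7L1 at 0.88 and RPL36AL at 0.73. Near-identical copies and pseudogenes can take reads from ribosomal protein genes under unique mapping, which makes single members uncertain. RefSeq starts were found for 65 of the 79 genes. Of these 41 (63.1%) began with a C in a run of at least 5 pyrimidines, against 5.79% of the 7292 transcripts of the table with a promoter sequence. The first 15 bases from the RefSeq start (GRCh38.p14, strand of the gene) are shown for genes with low TE ratios and then for the 3 paralogs with high ones, with the pyrimidine run in capitals.
RPLP1 (chr15:69452818-69452832): CCCCTTTCCTCagct
RPS23 (chr5:82278340-82278354): CTCTTTCgctcaggc
RPL21 (chr13:27251558-27251572): CCTTTCggccggaac
RPS12 (chr6:132814569-132814583): CTCTTTCCCTgccgc
TPT1 (chr13:45341169-45341183): CTTTTCCgcccgctc
EEF1A1 (chr6:73521018-73521032): CTTTTTCgcaacggg
RPL26L1 (chr5:172958729-172958743): ggcgaacgaaacgcg
RPL7L1 (chr6:42879616-42879630): gtagctaggagcgga
RPL36AL (chr14:49620612-49620626): CCTgttaggcgagag
The 6 upper transcripts begin with a run of 6 to 11 pyrimidines, and the 3 paralogs with none or 3. They were picked after their TE ratios were seen and are not the lowest in order, so their contrast does not describe the list. The median TE log2 ratio was -0.54 for ribosomal protein genes with a run of at least 5 at the RefSeq start and -0.38 for those without. RefSeq gives a single start per gene and need not be the start used in these cells.

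Other TOP mRNAs went partly with the ribosomal proteins. Of 41 genes listed as such the median TE log2 ratio was -0.26 and 31 were below 0. RefSeq starts were found for 29 of them, and 19 of these began with a C in a run of at least 5 pyrimidines. The median TE log2 ratio was -0.33 for those with the run and -0.02 for those without, so the list is not uniform at the RefSeq start. TPT1, the translationally controlled tumour protein, had RNA at 1080 FPKM in quiescence and 867 FPKM in pre-senescence and Ribo-Seq at 462 and 760 FPKM, a TE log2 ratio of -1.03. The initiation factor subunit EIF3L also had -1.03. The elongation factor EEF1A1 had higher RNA in quiescence, 4227 against 3031 FPKM, and lower Ribo-Seq, 5202 against 6478 FPKM. Past 2-fold toward quiescence were 2 members, against 5.27% of all transcripts. They were the synthetase-complex protein EEF1E1 at 1.91 and the translation inhibitor EIF4EBP1 at 1.27. Of 27 translation factors without a TOP assignment none passed 2-fold in TE, and their median was 0.09.

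**Figure D4:**
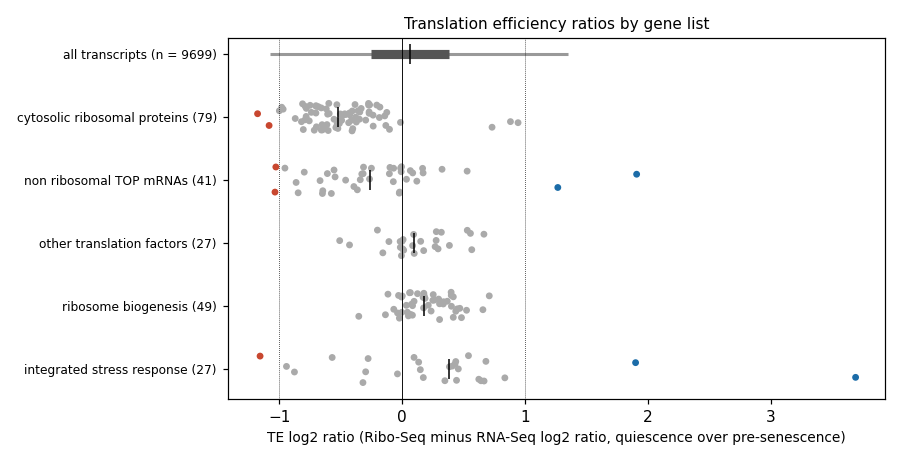
TE log2 ratios of quiescence over pre-senescence (Ribo-Seq minus RNA-Seq log2 ratio) for 5 gene lists, 1 point per gene, with a black tick at each median and dotted lines at 2-fold. The top bar gives the middle 50% and 95% of all 9699 transcripts. Ribosomal proteins lie left of 0 with a median of -0.52, other translation factors around 0.09.

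RNA and Ribo-Seq ratios went together across transcripts, with Pearson's r of 0.69 and Spearman's rho of 0.62 over 9699 transcripts, which share libraries and are not independent. Of the 497 RNAs higher in quiescence 383 (77.1%) were also 2-fold higher in Ribo-Seq. Of the 211 RNAs higher in pre-senescence 101 (47.9%) were, and their median log2 ratio was -1.23 in RNA and -0.96 in Ribo-Seq. Almost all had the same sign in both assays, 487 of 497 and 200 of 211. The largest Ribo-Seq differences outside those already named were IVL, the cornified-envelope protein involucrin, at 47.5 FPKM in pre-senescence against the floor, and the transcription factor MAF, at 24.2 FPKM in quiescence against the floor.

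**Figure D5:**
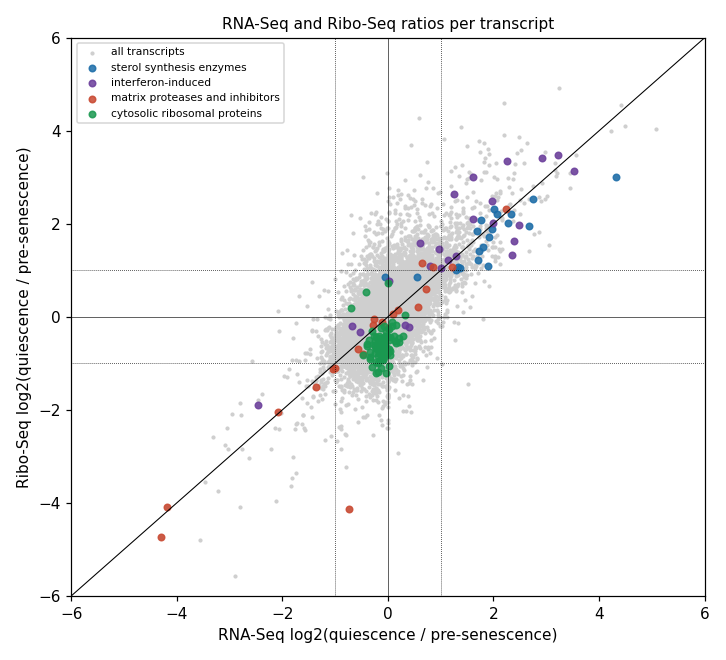
Ribo-Seq against RNA-Seq log2 ratio of quiescence over pre-senescence for all 9699 transcripts (grey), with 4 gene lists in colour, the diagonal of equal ratios and dotted lines at 2-fold. Sterol enzymes and interferon-induced genes lie along the upper diagonal, SERPINB2 and MMP3 at the lower end, and ribosomal proteins below the diagonal near an RNA ratio of 0.

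Differences in TE past 2-fold were most frequent at low footprint levels. Among transcripts with a Ribo-Seq level (geometric mean of the 2 conditions) of 2 to 5 FPKM, 21.7% were past 2-fold in TE, and among those at 100 FPKM or more 1.29% were. With at least 10 FPKM in all 4 columns 4678 transcripts remained, of which 52 had TE higher in quiescence and 18 higher in pre-senescence. At 10 FPKM or more in both RNA columns, the leading transcripts toward quiescence were HSD17B14, a steroid dehydrogenase, and the phosphatase inhibitor PPP1R11, with TE log2 ratios of 3.24 and 2.49. HSD17B14 had RNA at 14.1 and 10.3 FPKM and Ribo-Seq at 13.2 and 1.03 FPKM, and with a floor of 5 FPKM its TE log2 ratio was 0.96, under 2-fold. PPP1R11 had RNA at 49.1 and 49.3 FPKM and Ribo-Seq at 49.3 and 8.79 FPKM. C12orf62, ZNF22, CXorf69, HIST1H2BK, the methionine sulfoxide reductase MSRA, CBY1, the G protein GNAQ and MAGEH1 followed with 2.06 to 2.45.

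Toward pre-senescence the RNA polymerase II subunit gene POLR2J2 had RNA at 14.1 and 11.1 FPKM and Ribo-Seq at 28.1 and 114 FPKM, a TE log2 ratio of -2.36. POLR2J2 is 1 of several near-identical copies of POLR2J, and its reads are therefore uncertain. SLC35E2B, the growth factor VEGFB, ZFAND2A, BIVM, DMTF1, METTL9, NELF, FAM113A and POLR2F followed with -2.05 to -1.37. VEGFB had RNA at 54.6 and 47.6 FPKM and Ribo-Seq at 5.97 and 20.1 FPKM. These single-transcript TE differences rest on 1 pre-senescent Ribo-Seq library, whose column had 454 transcripts at the floor against 281 in quiescence.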

How the data were processed

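RNA-Seq and Ribo-Seq values of quiescent and pre-senescent BJ cells from sequencing run 1 were used; the proliferating column of that run was read as a side level only. The deposited values are FPKM, which the authors made by aligning reads with Bowtie (version not given in the sources used here; build hg19 per the submitters' processing notes) to Ensembl protein-coding transcripts, keeping unique reads, counting RNA over transcripts and footprints over coding sequences, and setting FPKM below 1 to 1. How replicate libraries were combined into 1 column is not given in the sources used here. Depth is unknown from floored FPKM, so no interval is given. Log2 ratios, TE and counts at 2-fold were computed in Python 3.11.15 with pandas 2.3.3, and the functions were tested on simulated data. No test was run. Named genes were the 10 largest ratios per measure and direction (10 FPKM or more in the higher column, for TE in both RNA columns too), up to 4 members per list and fixed genes; genes given as exceptions to a count were chosen after their values were seen, as were the start sequences. The comparison, the members and the lists were chosen with earlier results of these data known. Sequences are from RefSeq (GRCh38.p14), matched by symbol for 7292 of 9699 transcripts, and gene lists used symbols in the table. Alternatives were log2(FPKM + 1), a floor of 5 FPKM, a minimum of 10 FPKM in 1 of the 2 columns, centring on the median, a 1.5-fold threshold and a threshold set by the local spread at each level. Some genes are not reported here.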

Additional observations from a re-analysis of the deposited data

How the results depend on the processing

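The 4 list medians kept their direction and moved by less than 1.5-fold under every alternative that applied: sterol synthesis RNA 1.79 to 1.89, ribosomal protein TE -0.59 to -0.52, ERK feedback RNA -0.29 to -0.10 and mitosis RNA -0.55 to -0.49. Counts depended on the treatment of low values and on the threshold, and below the number higher in quiescence comes first and the number higher in pre-senescence second. With a floor of 5 FPKM they were 277 and 130 in RNA, 570 and 285 in Ribo-Seq, and 229 and 120 in TE. With at least 10 FPKM in 1 column they were 277 and 130 in RNA and 570 and 285 in Ribo-Seq, equal by construction at 2-fold, and 143 and 55 in TE. With log2(FPKM + 1) the RNA count in pre-senescence was 137 and the TE counts 321 and 170. At 1.5-fold they were 1189 and 1050, 2026 and 1559, and 1395 and 960. With the level-dependent threshold the Ribo-Seq counts were 488 and 189. The share of calls toward quiescence moved from 70.2% to 53.1% of RNA calls and from 66.6% to 56.5% of Ribo-Seq calls at 1.5-fold. Of the 60 ratios of the transcripts with the largest differences, 23 moved by more than 1.5-fold and stayed past 2-fold with a floor of 5 FPKM, 1 fell under 2-fold (HSD17B14 TE, 0.96) and 13 moved by more than 1.5-fold with log2(FPKM + 1); none reversed. Among them were G0S2 RNA (-2.62), MFAP4 RNA (3.53), IL7R RNA (-2.72) and ZNF22 TE (1.68) with a floor of 5 FPKM. No paired analysis was possible because each condition had 1 deposited column per assay, and for the same reason no replicate could be left out. Depth is unknown, values at the floor give bounds, and the pre-senescent Ribo-Seq rests on 1 library. The serum, RAS and drug differences cannot be told apart.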

Other observations

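Replication-dependent histone genes, a group chosen after its values were seen, differed in RNA and little in Ribo-Seq. All 12 HIST1 and HIST2 genes of the table had an RNA log2 ratio below 0, with a median of -1.34. Past 2-fold toward pre-senescence were 8, against 2.18% of all transcripts. The Ribo-Seq median of the 12 was 0.14, with 5 ratios below 0 and none past 2-fold. The TE log2 ratio was above 0 for all 12, with 9 past 2-fold toward quiescence, against 5.27% of all transcripts. Among the 9, HIST1H2AE, HIST1H2BC and HIST1H2BG had quiescent RNA at the floor, and HIST2H2BE was next to it at 1.69 FPKM. Quiescent RNA of HIST1H2AG and HIST1H3H was at the floor too. The RNA and TE ratios of these genes therefore rest on RNA values at or next to the floor. HIST1H4H had RNA at 1.66 and 7.07 FPKM and Ribo-Seq at 661 and 606 FPKM, and HIST1H1C had RNA at 8.93 and 28.9 FPKM and Ribo-Seq at 364 and 267 FPKM. These mRNAs mostly end in a stem-loop and not in a poly(A) tail, and the RNA-Seq libraries were made from poly(A) RNA, so that the RNA values describe polyadenylated forms. Histone paralogs are near-identical, and single genes are uncertain.

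Mitochondrial ribosomal proteins, also chosen after their values were seen, had an RNA log2 ratio below 0 for 72 of 73 genes, with MRPL33 at the floor in both conditions, a median of -0.52 and 1 past 2-fold toward pre-senescence. Their TE median was 0.19, unlike the -0.52 of the cytosolic ribosomal proteins, with no test of that difference. The 18 nucleoporins were all below 0 in RNA, with a median of -0.46 and none past 2-fold. Of 23 ZBTB zinc finger genes 7 were past 2-fold toward quiescence in Ribo-Seq and 1 in RNA, against 10.7% and 5.12% of all transcripts. Footprints of these 7 were low in the 1 pre-senescent Ribo-Seq library, from the floor (ZBTB6 and ZBTB10) to 5.78 FPKM (ZBTB4). Differences in TE past 2-fold were most frequent at low footprint levels, so the share over all transcripts is not a like background. The TE median of the 23 was 0.43.

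Of 23 endoplasmic reticulum chaperone genes SDF2L1 alone passed 2-fold in RNA, toward pre-senescence at 37.8 against 18.0 FPKM. Of 18 heat shock genes HMOX1 passed 2-fold toward pre-senescence, at 107 against 28.4 FPKM, and CRYAB toward quiescence, at 6.63 against 2.48 FPKM. Of 21 glycolysis genes ALDOC and PFKFB4 were higher in quiescence in RNA, at log2 ratios of 2.01 and 1.22, and of 31 lysosome and autophagy genes TFEB, at 1.40. Of 13 RNA polymerase II subunit genes 3 were past 2-fold in TE toward pre-senescence, against 3.09% of all transcripts. They were POLR2J2, POLR2F and POLR2H, while the median TE log2 ratio of the 13 was 0.05.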
